A study of Homo sapiens with 14 samples.

Results

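The insulin-like growth factor binding proteins are secreted carriers of the growth factors IGF1 and IGF2. The 6 genes described here are IGFBP2, IGFBP3, IGFBP4, IGFBP5, IGFBP6 and IGFBP7. They were chosen by name from the 54628 gene symbols counted in each library, and all 6 passed the filter on low counts that left 19126 genes for testing. Their levels are given as CPM, which scales the counts of a gene to the total counts given to any gene in its library, in each of 14 RNA-seq libraries.

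The cells were IMR90, an established human lung fibroblast strain, grown from 2 isolates that the labels do not assign to libraries. WT cells were untreated, and siHMGB2 cells were untreated with an siRNA knockdown of HMGB2, a chromatin protein. The other 10 libraries came from cells treated with 10 µM inflachromene (ICM), a small molecule used to induce senescence, for up to 6 days. ICM libraries 1 to 4 carried no knockdown, and siSRRM2, siBANF1 and siCTCF are labelled as knockdowns of the named gene on top of ICM. No time point is given per library, and the labels name no control siRNA. ICM 1 and 2 carry labels of the same form as WT, siHMGB2, siSRRM2 and siBANF1, and are called ICM 1-2. ICM 3 and 4 (ICM 3-4) share another label form with siCTCF, and in these 4 libraries the cell line field counts up from IMR91 to IMR94 while the titles say IMR90. WT has no library of the second form, so treatment and set cannot be told apart in ICM 3-4 against WT. ICM 1-2 also stand apart from WT in their reads: with siSRRM2 and siBANF1, 26.5% to 41.8% of reads were given to no gene, against 16.9% to 18% in WT and siHMGB2 and 12.8% to 14.3% in ICM 3-4 and siCTCF. That difference and the treatment cannot be told apart in ICM 1-2 against WT. Every group has 2 libraries, which the labels do not state to be separate cultures, so p-values measure only the spread between these samples.

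IGF1 and IGF2 drive growth and survival through IGF1R, a receptor tyrosine kinase, whereas IGF2R clears IGF2 by taking it to lysosomes. Binding proteins hold the ligands in the extracellular space, prolong their life and limit their access to receptors, and proteases such as PAPPA set them free again. Fibroblasts secrete several members of the family, and IGFBP3, IGFBP5 and IGFBP7 are widely described as part of the secretome of senescent cells.

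The libraries held 22336161 to 58257456 gene counts. The share of small RNA genes was 3.23% to 6.13% in the 6 libraries of ICM 1-2, siBANF1 and siSRRM2 and at most 0.00907% in the other 8, and mitochondrial genes took 3.2% to 4.27% in WT and siHMGB2 and at most 0.928% elsewhere. Of 14 fibroblast markers, 13 reached 1 CPM in every group, and TWIST2 was at 0 counts in all 14 libraries. The 8 epithelial markers summed to at most 3.804 CPM. The 8 immune markers summed to 40.19 to 105.0 CPM, most of it CD68, a lysosomal protein of macrophages that other cells also make, at 39.09 and 39.45 CPM in WT, 82.86 and 58.39 in ICM 1-2 and 94.95 and 103.8 in ICM 3-4, while CD14, a monocyte marker, reached 12.95 CPM in ICM 1 and PTPRC, the pan-leukocyte marker, was near 0. HMGB2 stood at 27.68 and 28.01 CPM in WT, against 3.18 and 3.52 in siHMGB2. ICM 3-4 held 94.87 and 91.92 CPM of CTCF, and siCTCF held 71.5 and 22.97. The libraries labelled siBANF1 held 16.96 and 36.72 CPM of BANF1, against 13.52 and 32.72 in ICM 1-2, and 58.98 and 17.01 CPM of SRRM2, against 237.8 and 112.4. The libraries labelled siSRRM2 held 76.05 and 76.42 CPM of SRRM2 and 34.24 and 33.34 CPM of BANF1, and no library of either group had less BANF1 than ICM 1. The names of the deposited files for these 4 libraries carry the other target, so the 2 groups are named only as the labels have them.

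The 6 genes lie at 5 places in the genome. IGFBP2 (chr2:216632828-216664436, plus strand) and IGFBP5 (chr2:216672105-216695549, minus strand) are neighbours, with 7668 bases between them. IGFBP3 lies at chr7:45912245-45921272 on the minus strand, IGFBP4 at chr17:40443450-40457725 on the plus strand, IGFBP6 at chr12:53097667-53102340 on the plus strand and IGFBP7 at chr4:57030773-57110385 on the minus strand. All positions are those of GRCh38. RefSeq promoter entries (GRCh38.p14) were found for 5 of the 6 genes. The 100 bases before the start of transcription are shown for IGFBP3, which was higher in ICM 2 than in ICM 1, and for IGFBP4 and IGFBP5, which moved most alike. Capitals mark exact matches on either strand to TATAAA or TATATA, forms of the TATA box, and to GGGCGG, the core of the GC box, which reads CCGCCC on the other strand.
IGFBP3: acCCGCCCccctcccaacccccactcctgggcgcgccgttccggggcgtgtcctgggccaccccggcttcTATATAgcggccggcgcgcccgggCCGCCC
IGFBP4: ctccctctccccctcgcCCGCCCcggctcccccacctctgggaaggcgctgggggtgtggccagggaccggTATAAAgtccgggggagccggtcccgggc
IGFBP5: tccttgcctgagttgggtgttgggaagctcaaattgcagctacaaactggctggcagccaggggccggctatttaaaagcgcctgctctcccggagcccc
The windows are chr7:45921273-45921372 for IGFBP3, chr17:40443350-40443449 for IGFBP4 and chr2:216695550-216695649 for IGFBP5, each read along the gene's own strand. TATATA began 30 bases before the start in IGFBP3 and TATAAA 29 bases before it in IGFBP4, and the IGFBP5 window held none of these exact matches. Among 35116 RefSeq promoters, 4.99% held TATAAA, 1.65% held TATATA and 31.3% held GGGCGG in the same window. GGGCGG also began 49 bases before the start of IGFBP2, in the window of its 3 entries that ends at position 216633419, and 17 bases before that of IGFBP6.

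IGFBP5 was the most abundant member per transcript length in WT. Divided by the length of its longest coding transcript, IGFBP5 stood at 2991.6 and 3072.4 CPM per kb in WT, ahead of IGFBP4 at 1197.4 and 1291.2 and IGFBP7 at 589.4 and 583.2. IGFBP2 (191.4 and 116.2), IGFBP3 (117.6 and 100.4) and IGFBP6 (54.86 and 52.05 CPM per kb) followed. IGFBP5 had the highest CPM of any gene in both WT libraries and ranked between 4 and 129 in the 10 ICM-treated libraries. The 6 genes together took 2.27% and 2.32% of all gene counts in WT and 1.74% and 1.76% in siHMGB2. They took 1.6% in ICM 1 but 0.24% in ICM 2, and 0.378% in ICM 3 but 0.105% in ICM 4. In siSRRM2 they took 0.52% and 0.503%, in siBANF1 0.868% and 0.242%, and in siCTCF 0.361% and 0.0998%. The lowest sum in the untreated libraries was above the highest sum in the ICM-treated ones, and the ICM-treated libraries of a group differed from each other by several fold except in siSRRM2. These are parts of a total, and fewer expressing cells cannot be told apart from less RNA per cell.

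**Figure D1:**
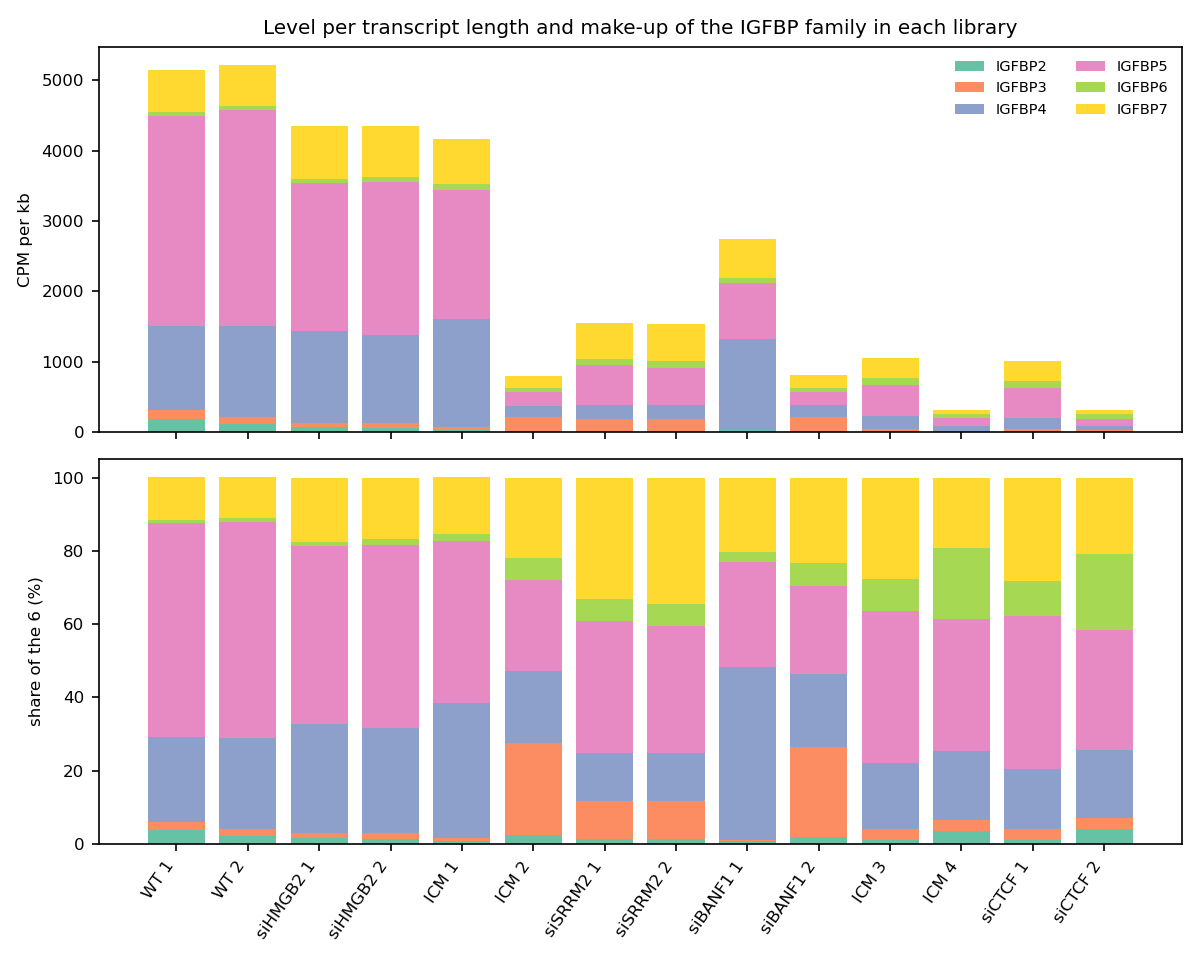
Stacked bars show the 6 IGFBP genes in each of the 14 libraries, as CPM per kb of transcript (top) and as each gene's share in percent of the summed CPM per kb (bottom). The summed level ran from 5215.4 CPM per kb in WT 2 to 319.4 in ICM 4, and the share of IGFBP5 from 58.9% in WT 2 to 24.1% in siBANF1 2.

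The make-up of the family differed between groups. IGFBP5 held 58.2% and 58.9% of the summed CPM per kb in WT, 48.5% and 49.9% in siHMGB2, and between 24.1% and 44.2% in the 10 ICM-treated libraries. IGFBP6 held 1.07% and 0.998% in WT, against 8.7% and 19.6% in ICM 3-4 and 9.32% and 20.8% in siCTCF, while its own CPM stayed within a 2.03-fold span. IGFBP3 made up 25.3% in ICM 2 and 24.5% in siBANF1 2 but 0.942% in ICM 1 and 0.349% in siBANF1 1. In the libraries labelled siSRRM2, IGFBP7 held 33% and 34.6%, close to the 36% and 34.6% of IGFBP5.

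IGFBP2 binds both ligands and also attaches cells through integrins. The WT libraries held 275.4 and 167.2 CPM of it, and the siHMGB2 libraries 98.32 and 85.57. In ICM 1-2 its level was 42.5 and 26.97 CPM, in siSRRM2 27.99 and 27.72, and in siBANF1 34.21 and 23.12. The lowest levels were in ICM 3-4, at 16.77 and 16.91 CPM, and in siCTCF, at 15.13 and 18.93. WT, siHMGB2 and the ICM-treated libraries thus formed 3 steps with no overlap between them. Within the ICM-treated libraries, the ranges of ICM 1-2, siBANF1 and siSRRM2 overlapped in turn, as did those of siCTCF and ICM 3-4, with no overlap between these 2 sets. Groups without overlap were common among the 13123 genes that averaged 1 CPM or more. The share was 56.1% for siHMGB2, 55.6% for ICM 1-2 and 81% for ICM 3-4 against WT, and 55.9% for ICM 3-4 against ICM 1-2. These shares also stand beside the non-overlaps of the same comparisons given for the other members below. How many of all genes form the 3 steps, or divide the 2 ICM-treated sets, was not computed.

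IGFBP3, the main carrier of IGFs in blood, where it forms a complex with the acid-labile subunit, behaved differently. Its level was 283.7 and 242.3 CPM in WT, and 154.7 and 170.5 CPM in siHMGB2. ICM 1 held 94.75 CPM and ICM 2 held 486.3, the highest of all libraries. The libraries labelled siBANF1 divided in the same direction, at 23.08 and 482.8 CPM, while those labelled siSRRM2 were close together at 394.4 and 385.5. ICM 3 and ICM 4 held 78.35 and 22.66 CPM, and siCTCF 76.38 and 22.11. Both WT values fell inside the range spanned by ICM 1 and ICM 2, and only ICM 3-4 and siCTCF lay wholly below every untreated library. How many of all genes divide in this way was not computed.

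IGFBP4 is a soluble inhibitor of IGF action and the main substrate of PAPPA. WT (2634.3 and 2840.7 CPM) and siHMGB2 (2857.9 and 2748.7 CPM) had overlapping ranges. ICM 1, at 3373.4 CPM, was above both, and ICM 2, at 341.4, was far below. The siBANF1 libraries again divided, at 2846.3 and 357.0 CPM, whereas siSRRM2 held 453.0 and 446.3. ICM 3-4 held 417.4 and 131.2 CPM, and siCTCF 360.2 and 131.6. Within ICM 1-2 and siBANF1, the library with more IGFBP4 was the one with less IGFBP3, whereas in ICM 3-4 and siCTCF both genes were lower in the same library.

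IGFBP5 binds extracellular matrix as well as IGFs. Its level was 18592.6 and 19094.7 CPM in WT, and 13138.7 and 13492.5 CPM in siHMGB2. ICM 1 held 11456.3 CPM and ICM 2 held 1239.1. The libraries labelled siSRRM2 held 3483.5 and 3301.4 CPM, those labelled siBANF1 4899.7 and 1222.6. ICM 3-4 held 2738.0 and 715.1 CPM, and siCTCF 2641.0 and 652.0. All 10 ICM-treated libraries lay below all 4 untreated ones, and the ranges of the 5 ICM-treated groups overlapped in turn down the order. The share of all genes that divide treated from untreated libraries in this way was not computed.

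IGFBP6, which prefers IGF2 as its ligand, was the steadiest member, with a span of 2.03-fold from lowest to highest library, against 12.4-fold to 29.3-fold for the other 5. WT held 64.57 and 61.26 CPM, siHMGB2 61.86 and 82.78, and ICM 1-2 95.44 and 54.5. The libraries labelled siSRRM2 held 107.9 and 107.6 CPM and those labelled siBANF1 84.59 and 59.07. ICM 3-4 held 108.5 and 73.67 CPM, and siCTCF 110.9 and 78.49. The ranges of neighbouring groups overlapped throughout its order from siSRRM2 at the top to WT at the bottom.

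IGFBP7, which binds IGFs weakly, reached 841.0 and 832.2 CPM in WT, and 1080.8 and 1038.8 CPM in siHMGB2, its highest values in the series. ICM 1 held 921.2 CPM and ICM 2 held 250.3. The libraries labelled siSRRM2 were at 733.2 and 759.7 CPM and those labelled siBANF1 at 795.5 and 273.4. ICM 3-4 held 417.4 and 86.95 CPM, and siCTCF 407.7 and 94.4. The ranges of siHMGB2, WT and siSRRM2 did not overlap, and those of the other ICM-treated groups overlapped in turn. The share of all genes without overlap was 56.1% for siHMGB2 against WT, and it was not computed for siSRRM2 against WT. In ICM 3, IGFBP4 and IGFBP7 happened to have the same count, 9978. The smallest count behind any of these values was 338, for IGFBP2 in siCTCF 1, which gives a counting error of 5.44%.

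**Figure D2:**
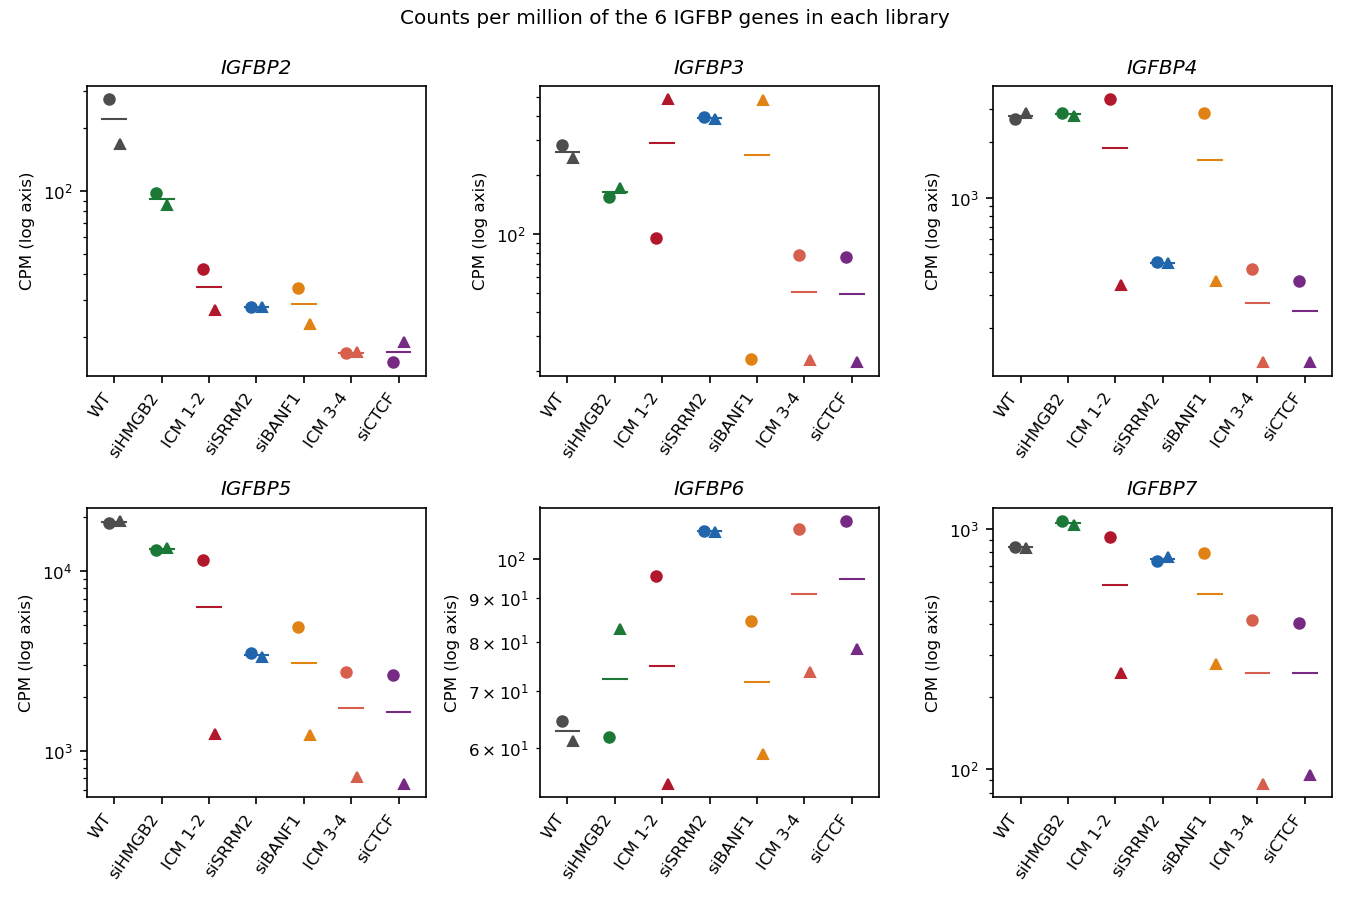
CPM of each IGFBP gene (log axis) by group, with a circle for the lower-numbered and a triangle for the higher-numbered library of a group and a line at their mean. IGFBP4, IGFBP5 and IGFBP7 were higher in ICM 1 than in ICM 2, and IGFBP3 was lower (94.75 against 486.3 CPM).

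The question whether ICM changed the family was first asked with ICM 1-2. IGFBP2 fell 6.9-fold against WT, a log2 fold change of -2.79 ± 0.36 (SE, n = 2 libraries per group; adjusted p = 0.00139, edgeR quasi-likelihood test with Benjamini-Hochberg adjustment over all genes tested). It was the 1 member of 6 called, while 13.5% of the 19126 genes were called in this comparison and 6.86% were called lower. Fitted to these 4 libraries alone, the IGFBP2 change was -2.69 with an adjusted p of 0.0972 in edgeR, and no gene of 16617 was called although 3664 had an unadjusted p under 0.05. IGFBP5 had a log2 fold change of -1.64 ± 1.07 (edgeR adjusted p = 0.322), and its groups did not overlap. Groups without overlap were common here, at 55.6% of the 13123 genes that averaged 1 CPM or more. The IGFBP5 change was -4.13 without ICM 1 and -0.81 without ICM 2. Without a filter on low counts it was -1.66 and passed the test (edgeR adjusted p = 0.000777). In that fit, with 33733 genes, IGFBP2 kept its change of -2.79 while its edgeR adjusted p went from 0.00139 to 1.58e-11. The reason for these smaller p-values was not tested, so that pass adds little. IGFBP3 at -0.04 ± 1.09, IGFBP4 at -0.63 ± 1.07, IGFBP6 at 0.14 ± 0.38 and IGFBP7 at -0.60 ± 0.89 did not pass, with ICM 1 and ICM 2 on different sides of WT for IGFBP3, IGFBP4, IGFBP6 and IGFBP7. The median log2 fold change was -0.62 over the members and 0.10 over all genes tested.

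In ICM 3-4 against the same WT libraries, 3 of the 6 members were called and all 3 fell, while 30.3% of genes were called and 16% called lower. IGFBP2 fell 15.5-fold (log2 fold change -3.96 ± 0.38 SE, edgeR adjusted p = 0.000265). IGFBP5 fell 12.6-fold (-3.65 ± 1.15, edgeR adjusted p = 0.0362) and IGFBP4 fell 11.5-fold (-3.53 ± 1.18, edgeR adjusted p = 0.0445). IGFBP3 at -2.59 ± 1.16 (edgeR adjusted p = 0.11) and IGFBP7 at -1.93 ± 0.92 (edgeR adjusted p = 0.13) did not pass, and IGFBP6 was at 0.30 ± 0.38. All 5 members with a negative change had both ICM 3-4 libraries below both WT libraries, and IGFBP6 had both above, in a comparison where 81% of 13123 genes showed no overlap. The median was -3.06 over the members and -0.02 over all genes. Of the genes called, 47.1% were higher with TMM scaling and 58.5% with scaling by total counts. IGFBP2 passed in every fit without 1 of the 4 libraries, and IGFBP4 and IGFBP5 in none of them (edgeR adjusted p from 0.0673 to 0.214). Over those fits the change ran from -5.03 without ICM 3 to -2.96 without ICM 4 for IGFBP5, and from -4.69 to -2.89 for IGFBP4. In a fit without ICM 1-2 and siBANF1, chosen after the data were seen, 58.4% of 17907 genes were called and 5 members passed, IGFBP3 (edgeR adjusted p = 0.00714) and IGFBP7 (edgeR adjusted p = 0.05 after rounding) among them.

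Both ICM comparisons share the WT libraries, so their values stand side by side rather than as separate support. Tested directly, IGFBP2 was lower in ICM 3-4 than in ICM 1-2 by 1.17 on the log2 scale (log2 fold change -1.17 ± 0.34 SE, edgeR adjusted p = 0.0366), the 1 member of 6 called where 19.5% of genes were called and 11% called lower. That call was lost without ICM 1, ICM 3 or ICM 4, with changes between -1.49 and -0.72 over the libraries left out. The other members differed by -2.55 ± 1.16 for IGFBP3, -2.90 ± 1.15 for IGFBP4, -2.01 ± 1.08 for IGFBP5, 0.16 ± 0.38 for IGFBP6 and -1.33 ± 0.91 for IGFBP7. Fibroblast markers were also lower in the ICM libraries: their summed CPM was 23625.4 to 30850.8 in WT, 4735.7 to 15698.7 in ICM 1-2 and 2621.1 to 5284.1 in ICM 3-4. In siHMGB2 it was 33760.2 to 40586.9, above WT, and the summed IGFBP share there was below WT. The largest part there was COL1A1, at 10996.8 and 14223.1 CPM, against 5093.0 and 8116.1 in WT. The markers did not move together: COL3A1 went from 2867.1 and 3606.1 CPM in WT to 1312.0 and 1418.8 in siHMGB2. Of the 13 tested in siHMGB2 against WT, 8 changes were above 0, 5 were below and 0 were called. Of the 13 markers tested, 1 was called lower in ICM 1-2 and 8 in ICM 3-4. Smooth muscle and pericyte markers summed to 765.9 to 802.8 CPM in WT, 46.35 to 370.3 in ICM 1-2 and 18.96 to 50.15 in ICM 3-4, with MYH11, a defining gene of smooth muscle, near 0. In WT most of this sum was RGS5, at 602.8 and 457.0 CPM, while ACTG2 of the same list stood at 76.43 and 149.1. The 8 endothelial markers summed to 75.15 to 89.66 CPM in WT, 68.43 to 243.6 in ICM 1-2 and 2.996 to 16.19 in ICM 3-4, where 2 of 4 tested were called lower. Most of each sum was 1 gene, TEK, at 67.28 and 81.84 CPM in WT, 240.9 and 68.06 in ICM 1-2 and 15.31 and 2.877 in ICM 3-4. PECAM1, CDH5 and EMCN were near 0, and no marker but TEK passed 8.133 CPM, the KDR value of siHMGB2 1. With small RNA and mitochondrial genes left out of the fit, IGFBP2 was at -2.80 in ICM 1-2 and -3.95 in ICM 3-4 against WT. With them it was at -2.79 and -3.96. IGFBP5 was at -1.65 and -3.65 without them, and at -1.64 and -3.65 with them. That step covers only the counts of these genes. The part of the markers, and of other differences that go with these shares, in the IGFBP values was not tested.

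Knockdown of HMGB2 in untreated cells was compared with WT. No member was called in the fit to all 14 libraries (edgeR, 0% of genes called; 1 member and 908 genes at an unadjusted p under 0.05; DESeq2 called no member and 73 genes). IGFBP2 was at -1.22 ± 0.34 (log2, SE) with an edgeR adjusted p of 0.711, IGFBP3 at -0.64 ± 1.10, IGFBP4 at 0.09 ± 1.07, IGFBP5 at -0.45 ± 1.04, IGFBP6 at 0.26 ± 0.38 and IGFBP7 at 0.40 ± 0.89. The spread in that fit is shared with ICM 1-2 and siBANF1, whose libraries differ widely. Fitted to the 4 WT and siHMGB2 libraries alone, IGFBP2 (-1.20, edgeR adjusted p = 0.00124) and IGFBP3 (-0.63, edgeR adjusted p = 0.0106) fell, where 10.9% of 15338 genes were called. The fit without ICM 1-2 and siBANF1 called IGFBP2 alone of the members (edgeR adjusted p = 0.0286), where 1.46% of genes were called. IGFBP2, IGFBP3 and IGFBP5 had both siHMGB2 libraries below both WT libraries and IGFBP7 had both above, where 56.1% of genes showed no overlap.

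**Figure D3:**
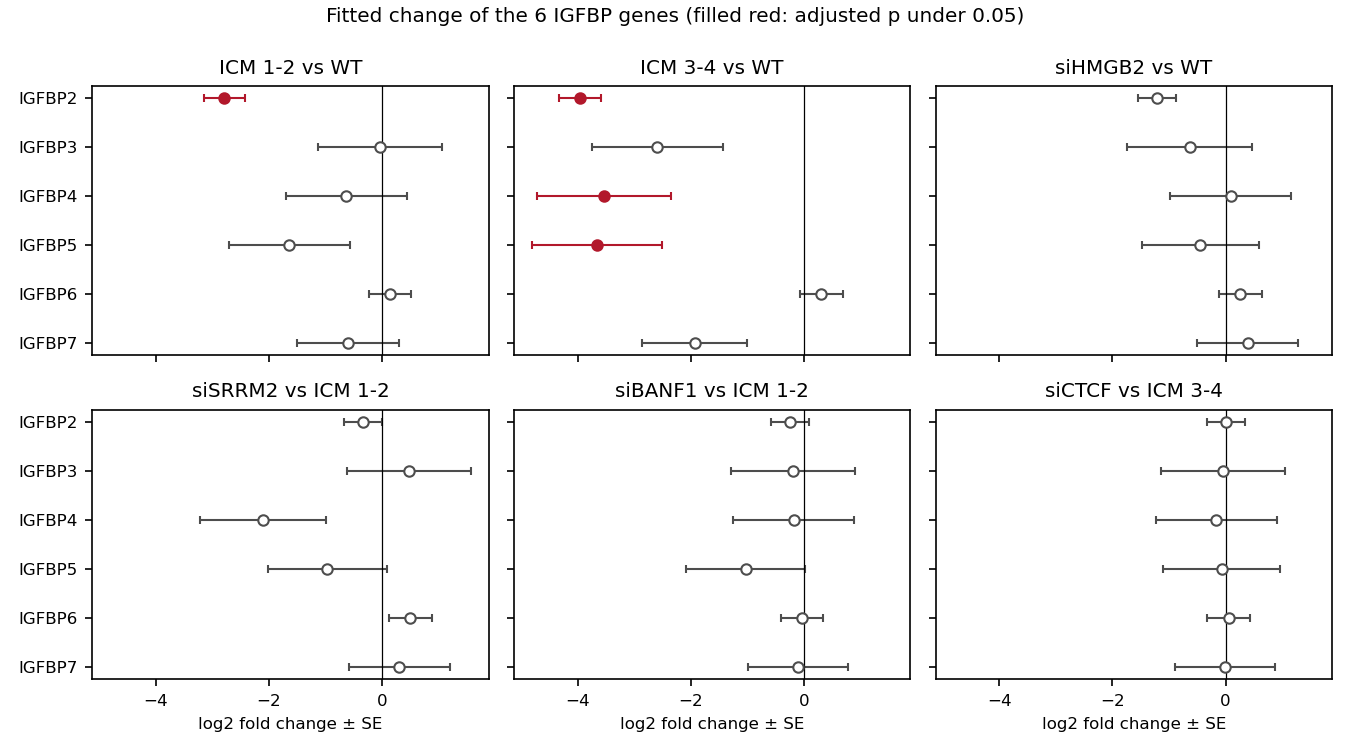
Log2 fold change of each IGFBP gene with its standard error (horizontal bars) in 6 comparisons, from 1 edgeR fit to 14 libraries, with filled red points for an adjusted p under 0.05. IGFBP2 was called lower in both ICM comparisons, and no member was called in the knockdown comparisons.

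On the ICM background, knockdowns were compared with the ICM libraries of the same label form. Against ICM 1-2, no member was called in siSRRM2 (edgeR, 0.178% of genes called, 0 members and 2168 genes at an unadjusted p under 0.05; DESeq2 called no member and 727 genes). The changes ranged from -2.11 ± 1.11 for IGFBP4 to 0.50 ± 0.38 for IGFBP6, the member whose 2 siSRRM2 values lay above both ICM values, where 43.9% of genes showed no overlap. No member was called in siBANF1 either (edgeR, 0% of genes called, 0 members and 591 genes at an unadjusted p under 0.05; DESeq2 called no member and 17 genes), with changes from -1.03 ± 1.05 for IGFBP5 to -0.04 ± 0.38 for IGFBP6. All 6 members overlapped between siBANF1 and ICM 1-2, where 13.6% of genes did not. In siCTCF against ICM 3-4 the changes lay between -0.16 ± 1.07 for IGFBP4 and 0.05 ± 0.38 for IGFBP6, no member was called (edgeR, 0% of genes called, 0 members and 125 genes at an unadjusted p under 0.05; DESeq2 called 0 members and 0 genes), and all 6 overlapped, where 14.9% of genes did not. These standard errors leave room for changes of more than 2-fold in IGFBP3, IGFBP4, IGFBP5 and IGFBP7, and for IGFBP6 in siSRRM2. The fit ignored library numbers, so they also hold the spread between the 2 libraries of a group. For all 6 members, siCTCF 1 was within 1.16-fold of ICM 3 and siCTCF 2 within 1.12-fold of ICM 4. For siBANF1 2 and ICM 2 the largest difference was 1.17-fold, but for siBANF1 1 and ICM 1 it was 4.11-fold. No bound was computed for IGFBP2 or for IGFBP6 in the other knockdowns.

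In ICM, siBANF1 and siCTCF, all members but IGFBP2 in the second set differed more between the 2 libraries of a group than between knockdown and control libraries of the same number. ICM 2 and siBANF1 2 were within 1.17-fold of each other for all 6 members, and 0.304% of the 9202 genes that averaged 10 CPM or more differed by more than 2-fold between them. ICM 1 and ICM 2 differed by up to 9.88-fold, for IGFBP4, with 34.2% of those genes past 2-fold, and siBANF1 1 and 2 by up to 20.9-fold, for IGFBP3, with 35.4% past 2-fold. ICM 1 and siBANF1 1 differed by at most 4.11-fold, for IGFBP3, and by 2.34-fold for IGFBP5, with 7.84% of genes past 2-fold. In the second set, siCTCF 1 was within 1.16-fold of ICM 3 and siCTCF 2 within 1.12-fold of ICM 4 for all 6 members. ICM 3 and ICM 4 differed by 4.8-fold for IGFBP7, 3.83-fold for IGFBP5, 3.46-fold for IGFBP3 and 3.18-fold for IGFBP4, where 5.65% of genes were past 2-fold. The libraries labelled siSRRM2 differed from each other by at most 1.06-fold for the 6 members, with 0.0% of genes past 2-fold. That share was 0.174% between the WT libraries and 0.272% between the siHMGB2 libraries. Only for ICM 3-4 and siCTCF does the pairing of numbers rest on the deposited file names, since the labels number the siCTCF libraries from 1.

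An antisense gene named after IGFBP7, IGFBP7-AS1, overlaps it by 624 bases at its start. It reached 73.33 and 72.95 CPM in WT, 91.05 and 100.6 CPM in siHMGB2, and 0.261 to 1.61 CPM in the 10 ICM-treated libraries. The edgeR log2 fold change was -6.90 ± 1.03 in ICM 1-2 (adjusted p = 0.00296) and -6.45 ± 1.02 in ICM 3-4 (adjusted p = 0.00211). Fitted to ICM 1-2 and WT alone, it was not called. As a share of IGFBP7 counts it was 8.42% to 9.68% in untreated libraries, 0.0826% to 0.17% in the 6 libraries of ICM 1-2, siBANF1 and siSRRM2, and 0.277% to 0.408% in the 4 of siCTCF and ICM 3-4. Whether counting used strand is not given in the sources used here, so reads of the 2 strands in the overlap cannot be told apart and the values of IGFBP7-AS1 are uncertain.

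The ligands of the family were close to the limit of counting. IGF1 was at 0.4115 to 1.652 CPM and IGF2 at 0.5065 to 2.429 CPM in the 4 untreated libraries, and INS was at 0 in all 14. IGF1 had 33 counts over the WT libraries and 0 in ICM 1-2, so it was at least 16.2-fold higher in WT (a floor of 3 counts over the group, for counting error only). IGFBP1, the remaining classical member, which lies 18584 bases from IGFBP3 and was named after its values were seen, had at most 0.5959 CPM in any library. Of 18 ligands, receptors and adaptors, 14 were tested. In ICM 1-2 against WT, 1 was called higher, GRB10, an adaptor that dampens receptor signalling (log2 0.74 ± 0.22 SE), and 3 were called lower. These were IGF1, IRS2, an insulin receptor substrate (-1.14 ± 0.33), and GRB14, with 38 counts in WT and 1 in ICM 1-2, a ratio of 55.9 with a 95% Clopper-Pearson interval of 9.45 to 2267.3. That interval pools the libraries of a group and covers counting error only. In ICM 3-4, the adaptors SHC1 (1.04 ± 0.26) and GRB2 (0.82 ± 0.26) rose, and IRS1 (-1.93 ± 0.33) and TMEM219, reported as a cell-surface receptor for IGFBP3 (-1.63 ± 0.45), fell. IRS1 alone of these 8 calls was kept whichever library was left out. The 4 calls in each comparison are 28.6% of the 14 genes, beside 13.5% of all genes in ICM 1-2 and 30.3% in ICM 3-4. The medians were -0.16 and -1.47 in the 2 comparisons.

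The receptors showed the same division between ICM 1 and ICM 2. For IGF1R, WT held 81.4 and 103.6 CPM, ICM 1-2 188.8 and 51.24, and ICM 3-4 56.55 and 57.9. For IGF2R, WT held 629.8 and 625.2 CPM, ICM 1-2 1205.8 and 206.4, and ICM 3-4 309.5 and 285.1. For INSR, the insulin receptor, WT held 11.62 and 15.36 CPM, ICM 1-2 33.03 and 15.46, and ICM 3-4 11.09 and 13.68. None of these receptors was called in either comparison in the edgeR fit to all 14 libraries. In ICM 3-4 against WT, IGF1R and IGF2R were each called lower under 3 of 12 alternatives, all edgeR fits (no filter, the compared libraries only, and without ICM 1-2 and siBANF1). ICM 1 was above both WT libraries for all of them and ICM 2 below both for IGF1R and IGF2R.

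Proteases of the family and their inhibitors formed a list of 17 genes, 13 of them tested. PAPPA, which cleaves IGFBP4 and IGFBP5, reached 581.8 and 680.8 CPM in WT, and 398.7 and 306.7 CPM in siHMGB2. ICM 1 held 1141.6 CPM and ICM 2 held 187.3, on either side of WT, and ICM 3-4 held 25.27 and 25.23. The siCTCF libraries held 24.36 and 18.3 CPM, those labelled siSRRM2 217.7 and 206.4 and those labelled siBANF1 764.2 and 193.5. PAPPA fell in ICM 3-4 against WT (log2 fold change -4.88 ± 0.89 SE, edgeR adjusted p = 0.00389), also with any of the 4 libraries left out, and was at -0.01 ± 0.75 in ICM 1-2. STC1 and STC2 are secreted inhibitors of PAPPA. For STC1, WT held 2074.2 and 1486.8 CPM, ICM 1-2 1646.4 and 230.5, and ICM 3-4 283.7 and 138.4, where its change of -3.30 ± 1.18 did not pass (edgeR adjusted p = 0.0553). For STC2, WT held 583.2 and 540.6 CPM, ICM 1-2 1263.2 and 539.1, and ICM 3-4 257.1 and 148.3, where it fell (-1.70 ± 0.53, edgeR adjusted p = 0.0355).

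In ICM 3-4 against WT, 4 of the 13 proteases and inhibitors fell and 1 rose, a share of 38.5% called beside 30.3% of all genes. The secreted serine protease HTRA1 (-2.42 ± 0.57 log2, SE) and the membrane protease ADAM9 (-1.16 ± 0.38) fell with PAPPA and STC2, and MMP3, a matrix metalloproteinase, rose (2.50 ± 0.82). PAPPA kept its call with each of the 4 libraries left out, whereas STC2, ADAM9 and MMP3 lost it each time, HTRA1 lost it without WT 2 or ICM 4, and ADAM9 also with scaling by total counts. In ICM 1-2, none of the 13 was called by edgeR, 3 had an unadjusted p under 0.05, and DESeq2 called 1. The list medians were -0.24 in ICM 1-2 and -1.93 in ICM 3-4, beside 0.10 and -0.02 over all genes. Of 12 related secreted genes with an IGFBP-like domain, 9 were tested. HTRA3, another secreted serine protease, fell in ICM 1-2 (-3.58 ± 0.80) and in ICM 3-4 (-3.82 ± 0.81). In ICM 3-4 the matricellular genes CCN2 (-3.15 ± 0.49) and CCN4 also fell. CCN4 went from 3547 counts over the WT libraries to 9 over ICM 3-4, all of them in ICM 3. The ratio was 277.0, with an exact 95% interval of 146.0 to 607.0 that covers counting error only and not the spread between libraries. The CCN4 log2 fold change ran from -14.07 without ICM 3 to -7.22 without ICM 4. CCN2 kept its call with each of the 4 libraries left out, CCN4 lost it each time, and HTRA3 lost it without WT 1 or WT 2 in ICM 1-2 and without ICM 4 in ICM 3-4. The share called was 11.1% in ICM 1-2 and 33.3% in ICM 3-4, beside the same 13.5% and 30.3% of all genes. The medians of that list were -0.58 and -0.97.

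No gene of these 3 lists was called by edgeR in siHMGB2, siSRRM2, siBANF1 or siCTCF. At an unadjusted p under 0.05, there were 3 of 36 tested in siHMGB2, 7 in siSRRM2, 3 in siBANF1 and 0 in siCTCF, and DESeq2 called 0, 3, 1 and 0.

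**Figure D4:**
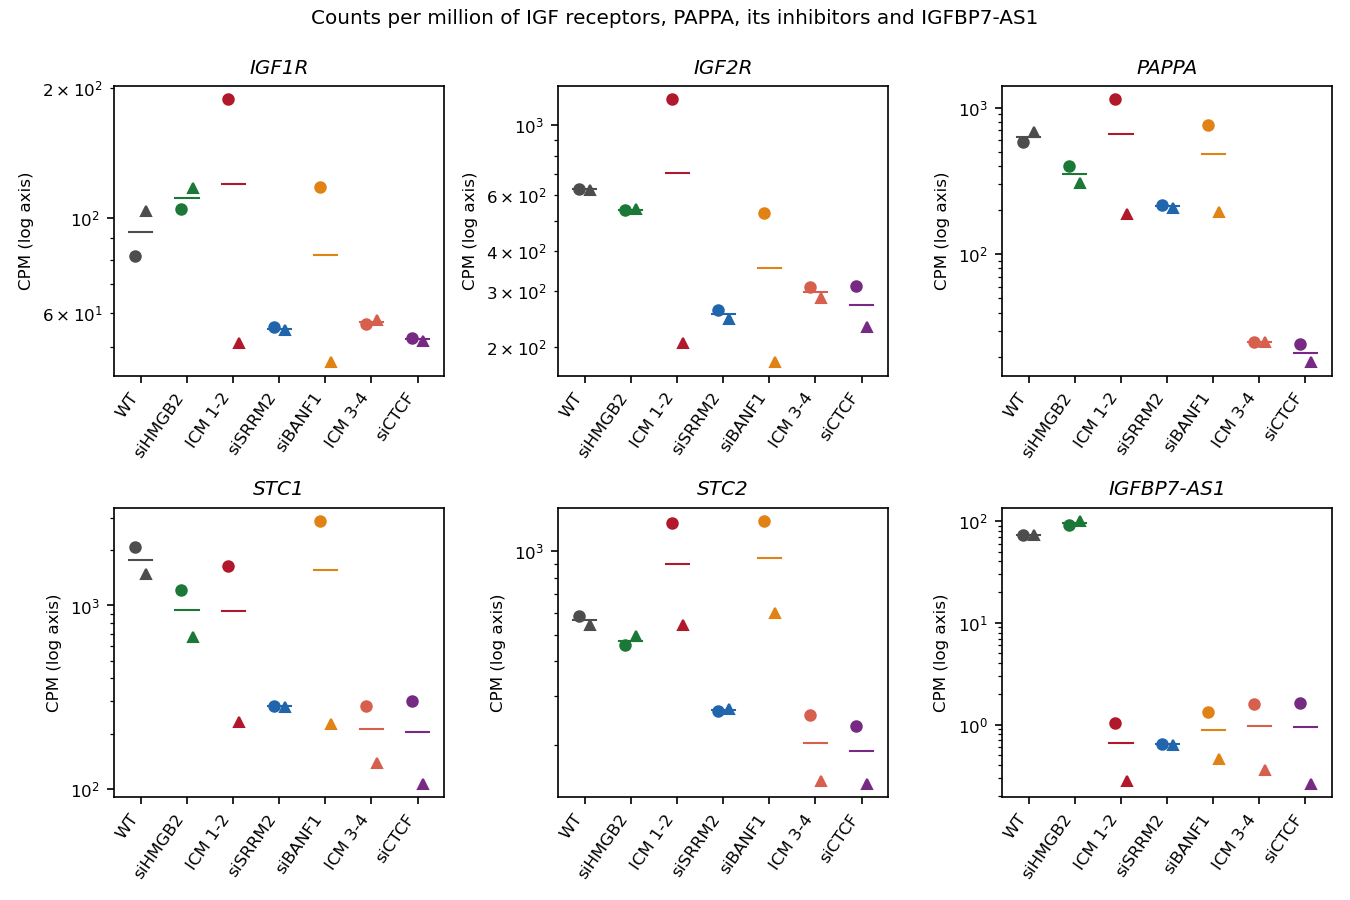
CPM (log axis) of IGF1R, IGF2R, PAPPA, STC1, STC2 and IGFBP7-AS1 by group, with a circle for the lower-numbered and a triangle for the higher-numbered library and a line at their mean. PAPPA lay between 18.3 and 25.27 CPM in ICM 3-4 and siCTCF and at 187.3 CPM or more in every other library.

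Over the 14 libraries, the log2(CPM + 1) of IGFBP4 and IGFBP5 had a Pearson r of 0.939, that of IGFBP5 and IGFBP7 0.899 and that of IGFBP4 and IGFBP7 0.868. IGFBP2 and IGFBP5, the neighbours on chromosome 2, had an r of 0.852. IGFBP3 lay between -0.246 and 0.433 with the other members, and IGFBP6 lay between -0.46 and 0.162 with the other members. The libraries share groups, sets and depth, so these are descriptions without a test. Among 8881 protein-coding genes that averaged 10 CPM or more, the genes most like IGFBP5 were C1S (0.982), KREMEN1 (0.982) and SCMH1 (0.978). Those most like IGFBP4 were PLEKHO1 (0.982), GTF2IRD1 (0.982) and NID1 (0.981). IGFBP7 was most like PITX1 (0.97), CUL7 (0.969) and MBTPS1 (0.965). IGFBP2 was most like DDX42 (0.965), KCNE4 (0.959) and OBSL1 (0.957). IGFBP3 was most like DYRK4 (0.982), SCCPDH (0.937) and TMEM14A (0.923), and IGFBP6 had the weakest likeness, to OS9 (0.876), EML2 (0.867) and POMGNT1 (0.849).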

How the data were processed

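RNA was lysed in Trizol, treated with DNase on the column, made into TruSeq libraries and sequenced from both ends, per the labels' protocols. The authors deposited whole-number read counts per gene symbol, 1 file per library. The submitters' processing notes name STAR 2.7.3a, HTSeq 0.12.4, DESeq2 1.36.0 and hg38. The annotation release and strand setting are not given in the sources used here. The 5 rows for reads given to no gene (12.8% to 41.8% of reads) were left out. All 14 libraries entered 1 edgeR 4.0.16 quasi-likelihood fit (R 4.3.3) with 7 group means and 7 residual degrees of freedom, after filterByExpr and TMM scaling. The threshold for a call was 0.05 after Benjamini-Hochberg adjustment. CPM used unadjusted gene totals, and CPM per kb the longest coding transcript of GENCODE v29. With 2 libraries against 2, an exact permutation test cannot pass the threshold and none was run. DESeq2 1.42.0 was an alternative. The members and lists were chosen with earlier results of these data known. Named were the 6 members, IGFBP7-AS1, up to 4 called genes per list and comparison with the largest change, IGF1, IGF2, IGF1R, IGF2R, INSR, PAPPA, STC1 and STC2, and 3 genes per member with the highest correlation. The fit was tested on simulated data drawn with the spread of the fit without ICM 1-2 and siBANF1. That test therefore does not show how the fit behaves with the wider spread of those 2 groups. Alternatives covered scaling, filters, test, libraries in the fit, controls, a replicate block, library totals and gene length, with each library also left out in turn.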

Additional observations from a re-analysis of the deposited data

Results flagged for a closer look

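Between ICM 3-4 and ICM 1-2, 9 of 42 genes of the family and its lists differed (edgeR adjusted p under 0.05). That share, 21.4%, is near the 19.5% of all genes called in this comparison. Both sets were compared with the same WT libraries, and WT has no library of the second form. A difference between the sets thus cannot be told apart from a difference in the effect of ICM. IGFBP2 differed by -1.17 on the log2 scale. CCN4 differed by -7.44 and PAPPA by -4.88. CCN2 differed by -2.58, STC2 by -2.27, ADAM9 by -1.64, CRIM1, a membrane protein with an IGFBP-like domain, by -1.53, TMEM219 by -1.44 and IRS1 by -1.37. All 9 were lower in ICM 3-4. Each of the 9 lost its call with at least 1 ICM library left out. Without ICM 1 the differences were -1.55 for CCN4, -2.93 for PAPPA, -0.58 for TMEM219, -0.72 for IGFBP2, -0.85 for IRS1 and -1.44 for STC2. They were -1.79 for CCN2, -1.03 for CRIM1 and -1.58 for ADAM9, the last close to its -1.64 with all libraries. None was called in a fit to the 4 ICM libraries alone, where 136 genes were called and 3985 had an unadjusted p under 0.05.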

How the results depend on the processing

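Settings other than leaving out 1 library gave 354 values of single members. They include fits to part of the libraries and the contrasts with ICM 3-4 as control. Those contrasts ask another question, and several of the sign changes came from them. Of the 354 values, 318 kept their direction and their side of the threshold, 21 passed it newly, 3 no longer passed it and 12 changed sign. With 1 library left out, 116 of 168 did, 38 changed sign, 11 no longer passed and 3 passed newly. No member that passed the test changed sign. Where a value moved, the cause was not tested, except that compared-library fits use fewer samples. Scaling by total counts moved the median of all genes from 0.10 to 0.24 in ICM 1-2 against WT and from -0.02 to 0.18 in ICM 3-4 against WT. Depth gave counting errors of at most 5.44% for the members, while IGF1 and IGF2 were near the floor of counting.

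For ICM 1-2 against WT, the count of genes was 3883 without a filter, 1038 at a minimum mean of 10 CPM, 4010 with DESeq2 and 0 in the compared libraries (0 members, 3664 genes at an unadjusted p under 0.05), and 2 members were called without a filter. IGFBP3 was 0.14 with total counts and 0.02 in the compared libraries. PAPPA, near 0, was 0.08 with relative log expression, 0.07 with total counts, 0.09 at 10 CPM, 0.08 with DESeq2 and 0.11 in the compared libraries. For ICM 3-4 against WT, 3125 genes were called at 10 CPM, where IGFBP4 no longer passed, and 10449 without ICM 1-2 and siBANF1, and both that fit and no filter called 5 members. For siHMGB2, 94 genes were called without a filter, 73 with DESeq2, 1668 in the compared libraries (2 members) and 261 without ICM 1-2 and siBANF1 (1 member). For siSRRM2, 1 gene was called with total counts, against 19 higher and 15 lower with TMM, 814 (1 member) without a filter, 76 at 10 CPM, 727 with DESeq2, 0 in the compared libraries (1488 at an unadjusted p under 0.05) and 4284 with ICM 3-4 as control, where IGFBP2 was 0.83, IGFBP4 0.78 and IGFBP5 1.04. For siBANF1, 161 genes were called without a filter, 17 with DESeq2 and 3016 with ICM 3-4 as control, where IGFBP2 was 0.92, IGFBP3 2.36, IGFBP4 2.72, IGFBP5 0.98 and IGFBP7 1.22. IGFBP7 was 0.01 for siCTCF in the compared libraries. For ICM 3-4 against ICM 1-2, no filter called 5 members, DESeq2 3 and the compared libraries 0, with 136 genes.

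The replicate block, over the libraries compared, called 1183 genes for ICM 1-2 against WT, 2443 (15.9%) and 4 members for siHMGB2 (IGFBP2, IGFBP3 and IGFBP5 lower, IGFBP7 higher), 1 gene for siBANF1 and 4 for siCTCF, where IGFBP7 was 0.05, and IGF2R was -0.38 in ICM 1-2. Same-numbered libraries deviated together with an r of -0.07 for ICM 1-2 and WT, 0.04 for siHMGB2 and WT, -0.003 for siSRRM2, 0.79 for siBANF1 and 0.42 for siCTCF, the last with the numbers of the file names. With 2 numbers per group these do not establish a pairing.

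Leaving out 1 library in turn gave these ranges, with the lone library of a group assumed to vary like the rest. For ICM 1-2 against WT, 512 to 3482 genes and 1 to 2 members were called, and the changes were -1.56 to 0.68 for IGFBP3, -3.21 to 0.21 for IGFBP4, -0.41 to 0.51 for IGFBP6, -1.94 to 0.05 for IGFBP7, -1.06 to 0.94 for IGF1R, -1.81 to 0.85 for IGF2R, -0.01 to 1.21 for INSR, -1.96 to 0.77 for PAPPA and -0.26 to 1.08 for STC2. For ICM 3-4 against WT, 1806 to 2471 genes and 1 member were called, and IGFBP6 was -0.08 to 0.61. For siSRRM2, 1 to 51 genes were called, with -0.65 to 0.11 for IGFBP2, -0.25 to 2.00 for IGFBP3, -2.95 to 0.46 for IGFBP4, -1.80 to 1.52 for IGFBP5 and -0.34 to 1.64 for IGFBP7. For siBANF1, 0 to 54 genes were called, with -0.65 to 0.20 for IGFBP2, -3.53 to 1.33 for IGFBP3, -2.48 to 2.39 for IGFBP4, -2.48 to 1.45 for IGFBP5, -0.43 to 0.51 for IGFBP6 and -1.19 to 1.23 for IGFBP7. For siCTCF, the changes were -0.10 to 0.10 for IGFBP2, -1.29 to 1.21 for IGFBP3, -1.16 to 0.99 for IGFBP4, -1.51 to 1.30 for IGFBP5, -0.29 to 0.43 for IGFBP6 and -1.52 to 1.63 for IGFBP7. For ICM 3-4 against ICM 1-2, 1090 to 5889 genes and 0 to 3 members were called, with -3.36 to 0.47 for IGFBP5, -0.21 to 0.71 for IGFBP6 and -2.95 to 0.01 for IGFBP7.

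Summed member CPM moved by more than 1 SD with TMM-scaled library sizes in WT (24868.6) and siHMGB2 (19692.1), and without small RNA and mitochondrial genes in the total in WT (23930.2), siHMGB2 (18165.4) and siSRRM2 (5417.6). Without division by length, the IGFBP5 share was 82.1% in WT, 76.1% in siHMGB2, 61.7% in ICM 1-2, 66.3% in siSRRM2, 53.5% in siBANF1, 70.4% in ICM 3-4 and 69.2% in siCTCF.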
